A study of Mus musculus with 24 samples.

Results

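Imprinted genes are transcribed mainly from the copy inherited from one parent, because a DNA methylation mark set in the egg or the sperm silences or activates the other copy. They lie in clusters in which a control region commands several neighbours, often with a long noncoding RNA made from the allele on which protein-coding genes are silent. In the brain they are known for roles in feeding, hormone release, maternal care and neuronal development, and many are strongly expressed in the hypothalamus. The genes described here are 44 mouse imprinted genes and host genes of imprinted transcripts, taken from a list by symbol and grouped by cluster and by the parental allele that is expressed. They are 44 of the 53465 genes in the count files. All were chosen by name, with earlier results of these data known.

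The levels come from RNA sequencing of the brain of 6 CAST/EiJ and 6 WSB/EiJ mice, inbred strains derived from wild mice of the castaneus and domesticus subspecies. The study compared strains that differ in infarct size after the middle cerebral artery is blocked, and the labels give no surgery, treatment, genotype change, sex, age or dissection for these animals. Because each animal is inbred, its parental alleles carry the same sequence, so the counts give the summed level of a gene and nothing on which allele is expressed. Each library was sequenced on 2 lanes, which were summed, and held 32982569 to 46513232 reads in genes. The labels number the animals separately and name no litter or batch, so the tests measure the spread between these animals. All markers on the neuron, astrocyte and oligodendrocyte lists had reads in these libraries. Libraries CAST_142 and WSB_100 stood apart. CAST_142 had a summed level of cerebellum markers of 1424 CPM (counts scaled to library size with TMM factors), against at most 217 CPM in any other animal, and a summed level of striatum markers of 373 CPM, the lowest of the 12. WSB_100 had a summed level of olfactory bulb markers of 406 CPM, against at most 119 CPM elsewhere. Results that rest on these animals are given with and without them. Gabra6, a marker of cerebellar granule cells, had 333 CPM in CAST_142, while no other library exceeded 11.5 CPM, so most libraries held little cerebellar signal. In bulk tissue RNA, fewer cells of a type and less RNA per cell cannot be told apart.

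Of the 44 genes, 33 were abundant enough to be tested, 2 had too few reads, 8 were listed at 0 reads in every animal, and Ddc-as1, the antisense transcript of Ddc, was matched to no identifier and was not analysed here. The 8 genes at 0 were Kcnq1ot1, the noncoding RNA that silences its cluster; Ndn, Magel2 and Mkrn3, protein-coding genes of the Prader-Willi region; Peg13, a noncoding RNA; the retrogenes Zrsr1 and Nap1l5; and Nnat, which encodes neuronatin, a small membrane proteolipid. All 8 are paternally expressed, and all 8 had 0% of their annotated body outside other genes. Kcnq1ot1 lies within Kcnq1; Ndn, Magel2 and Mkrn3 within the noncoding gene Gm32061; Peg13 within Trappc9; Zrsr1 within Commd1 and Gm28048; Nap1l5 within Herc3; and Nnat within Blcap.

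A value of 0 at these loci therefore says nothing of whether the gene was expressed. Over the whole table, 852 of 858 protein-coding genes nested in this way, with at least 90% of their exon bases outside other exons, were at 0 (99.3%), against 2269 of 20657 protein-coding genes with some body of their own (11.0%). The small RNA genes inside the tested genes gave the same picture. All 34 microRNA genes and all 221 small nucleolar RNA genes that overlap them were at 0, including the 208 small nucleolar RNA genes of Snhg14 and the 15 microRNA genes of Mirg. At nearly all such loci, reads in a stretch shared with another gene body, on either strand, were thus counted for neither gene. The value of a gene that overlaps others comes from the stretches it does not share.

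**Figure D1:**
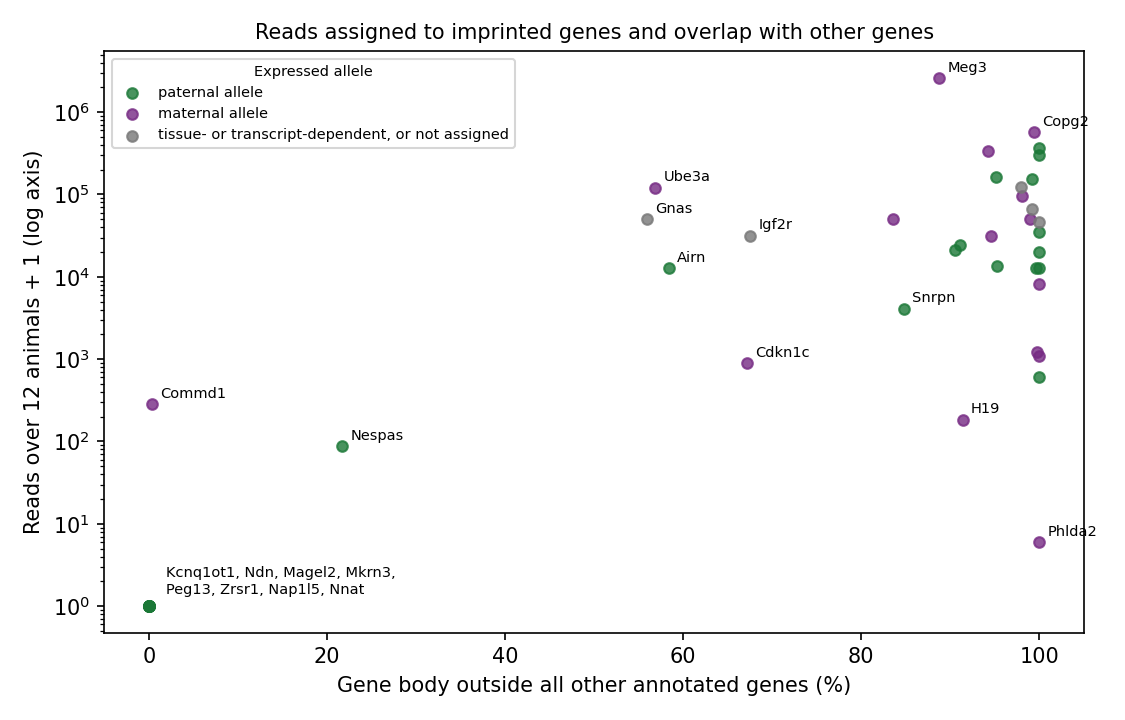
Reads per imprinted gene over the 12 animals plus 1 (log axis) against the percentage of the gene body outside all other annotated genes, with points coloured by the allele expressed. The 8 genes with 0% of their body outside other genes are all at 0 reads, and Commd1, with 0.339% outside, has few.

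The 2 genes with too few reads for a test were Phlda2, a pleckstrin homology protein known for limiting placental growth, and Nespas, the antisense RNA of the Gnas cluster. Phlda2 averaged 0.5 reads in CAST animals and 0.333 reads in WSB animals. Nespas averaged 6.17 reads in CAST animals and 8.17 reads in WSB animals, with 21.7% of its body free of other genes. A floor of 3 reads corresponds to 0.0645 to 0.0910 CPM at these depths and covers counting error only.

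The levels of the tested genes, given as CPM per kilobase of exon, spanned a wide range. Meg3, a noncoding RNA of the maternal chromosome, was highest at 290 ± 24.4 (SD, n = 12), and Copg2, a subunit of the COPI vesicle coat, followed at 223 ± 32.2. Impact, an inhibitor of GCN2 activation, had 61.0 ± 8.83, Peg3, a zinc finger protein, had 55.9 ± 7.86, and Rasgrf1, an exchange factor for Ras, had 54.7 ± 3.61. These 3 did not differ from each other beyond their spread. Rian stood at 37.6 ± 1.98, Blcap at 32.9 ± 3.14 and Herc3 at 27 ± 3. At the low end were Asb4 at 0.553 ± 0.397, H19 at 0.147 ± 0.0838 and Commd1 at 0.0961 ± 0.0269. Of the 32 neighbouring pairs in this order, 6 had ranges of mean ± SD that did not overlap. The zeros of nested genes show that reads were counted over gene bodies, introns included, so this scale is not one of spliced transcripts alone. Intronic reads add to a count while introns do not add to the divisor, which sets genes with long introns higher in this order. Copg2, for example, has 5121 exon bases in a body at chr6:30747554-30896794. With reads counted on either strand, antisense reads in that body would be part of its count too. The share of intronic or antisense reads was not tested. The divisor is all exon bases, of which only 4.92% for Commd1 and 5.84% for Snrpn lie outside other gene bodies, so the places of these genes in the order are set low by overlap.

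Strain differences in these genes were few and small. Of the 33 tested genes, 5 passed the test (edgeR quasi-likelihood, Benjamini-Hochberg adjusted p under 0.05 over all genes), which is 15.2%, against 42.7% of all 18425 genes tested. Higher in CAST were 4 of the 33, beside 21.5% of all genes, and lower was 1, beside 21.2% of all genes. The median log2 fold change, CAST over WSB, was 0.08 for the imprinted genes and 0.00464 for all genes, and the median size of the log2 fold change was 0.16 for the imprinted genes and 0.22 for all genes. None of the 33 tested genes reached a 2-fold difference, while some imprinted genes of a further list, given below, did. Of the 14 tested genes expressed from the paternal allele, 2 were higher and 0 lower (0 lower at an unadjusted p under 0.05 and 0 by DESeq2), and of the 14 expressed from the maternal allele, 2 were higher and 1 lower. Every CAST animal was on the same side of every WSB animal for 2 of the 33 genes, Sgce and Trappc9, beside 27.1% of all genes.

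**Figure D2:**
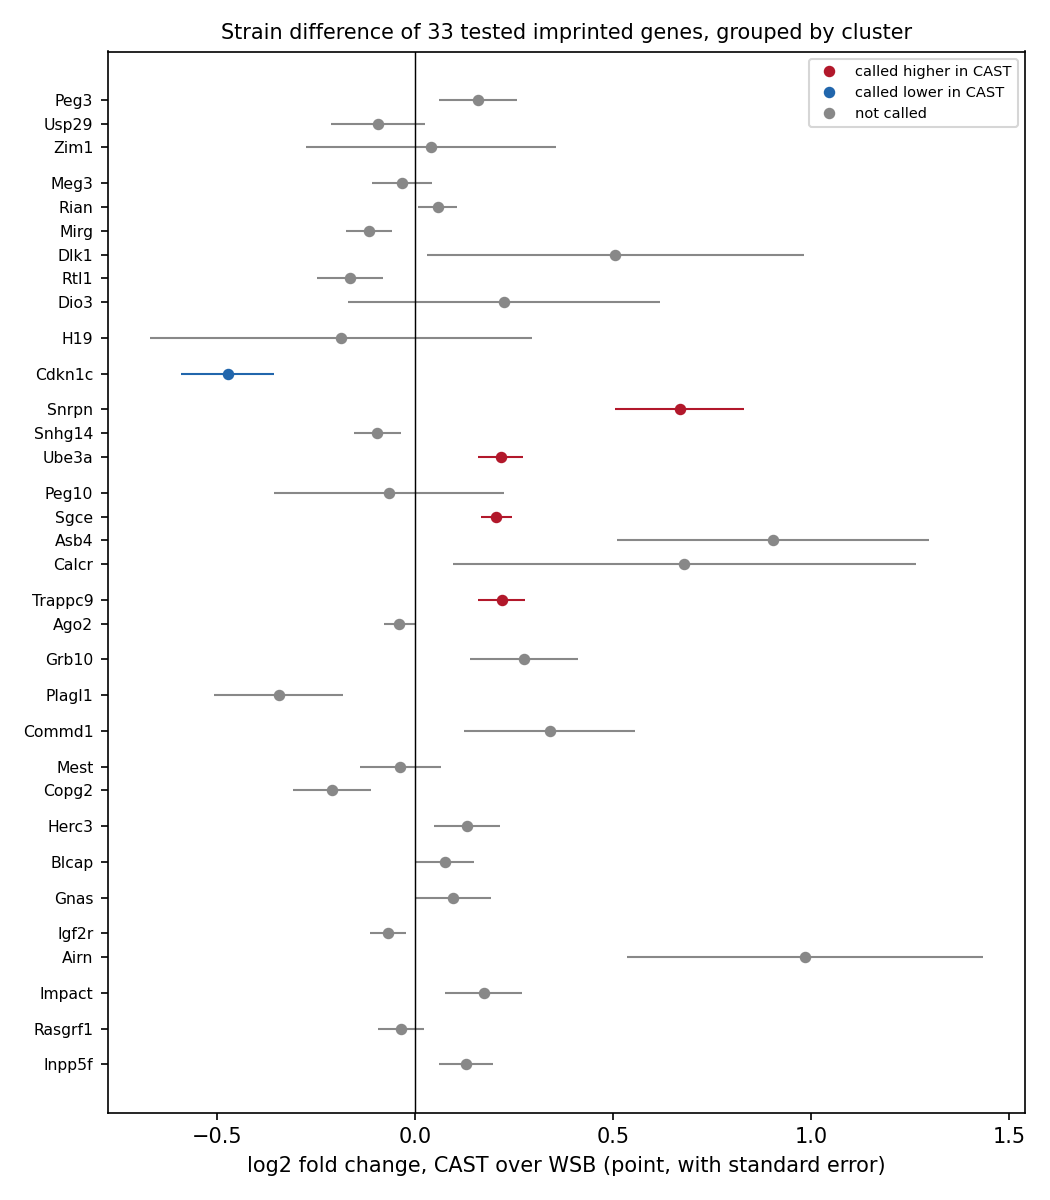
log2 fold change of CAST over WSB (points) with its standard error (bars) for the 33 tested imprinted genes, ordered by cluster from top to bottom, coloured by whether the gene was called. The 5 called genes are Snrpn, Ube3a, Sgce and Trappc9, to the right of 0, and Cdkn1c, to the left.

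In the Peg10-Sgce cluster, Sgce and Peg10 are paternally expressed and start within 98 bases of each other, on opposite strands. Sgce (ENSMUSG00000004631, chr6:4674350-4747207, minus strand, GRCm38 by GENCODE M21) encodes epsilon-sarcoglycan, a membrane protein whose loss from the paternal allele causes myoclonus dystonia in humans. Its level ran from 42.0 to 44.3 CPM in CAST animals, with a median of 43.5, and from 35.6 to 41.2 CPM in WSB animals, with a median of 37.1. Every CAST animal was thus above every WSB animal, and the CAST values lay close together. The means were 43.3 ± 0.863 CPM in CAST brains and 37.6 ± 1.89 CPM in WSB brains (n = 6 each, SD), and the log2 fold change was 0.21 ± 0.04 (SE; edgeR adjusted p = 0.000755). Peg10, a retrotransposon-derived gene needed for the placenta, ran from 40.0 to 119.6 CPM in CAST animals, with a median of 68.3, and from 36.1 to 97.0 CPM in WSB animals, with a median of 74.6. Its ranges overlapped over most of their length, with a log2 fold change of -0.07 ± 0.29 that was not called (edgeR adjusted p = 0.879). The highest and the lowest animal differed 2.99-fold in CAST and 2.69-fold in WSB for Peg10, and 1.06-fold in CAST and 1.16-fold in WSB for Sgce.

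Asb4, an ankyrin repeat and SOCS box protein, and Calcr, the calcitonin receptor, are maternally expressed genes on either side of this pair. Asb4 ran from 1.22 to 6.75 CPM in CAST animals, with a median of 2.16, and from 0.839 to 2.29 CPM in WSB animals, with a median of 1.43. Its log2 fold change was 0.90 ± 0.39 and was not called (edgeR adjusted p = 0.0823). Calcr ran from 1.08 to 7.68 CPM in CAST animals, with a median of 2.60, and from 0.304 to 3.66 CPM in WSB animals, with a median of 1.91. The strains overlapped for both genes, and in both the highest animal was CAST_202.

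In the Peg13 cluster, Trappc9 (chr15:72589620-73061204, minus strand), a subunit of a complex that tethers transport vesicles, is known to be biased toward the maternal allele in brain, while Peg13 within it is paternal. Trappc9 ran from 97.0 to 128 CPM in CAST animals, with a median of 106, and from 88.3 to 96.7 CPM in WSB animals, with a median of 92.2. The strains did not overlap, but the gap between the lowest CAST and the highest WSB animal was narrow. The means were 107.6 ± 10.9 CPM in CAST brains and 92.4 ± 3.07 CPM in WSB brains (n = 6 each, SD), with a log2 fold change of 0.22 ± 0.06 (edgeR adjusted p = 0.00899). The highest value was that of CAST_142, and without CAST_142 and WSB_100 the log2 fold change was 0.17 (edgeR adjusted p = 0.00299). Of the Trappc9 body, 98.9% lies outside other genes, and the Peg13 stretch within it has no count of its own. Ago2, the Argonaute protein that binds small RNAs, ran from 183 to 200.7 CPM in CAST animals, with a median of 191, and from 188 to 210.3 CPM in WSB animals, with a median of 195. It was among the least variable of these genes and was not called, with a log2 fold change of -0.04 ± 0.04 (edgeR adjusted p = 0.452).

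The Snrpn-Ube3a cluster is the mouse counterpart of the human region behind Prader-Willi and Angelman syndromes. Ube3a (chr7:59228750-59311536, plus strand) encodes an E3 ubiquitin ligase that neurons express from the maternal allele, and the paternal noncoding RNA Snhg14 runs antisense through it. Ube3a ran from 242 to 285 CPM in CAST animals, with a median of 266, and from 206 to 246 CPM in WSB animals, with a median of 230.0. The ranges touched only at their ends. The means were 262.7 ± 15.9 CPM in CAST brains and 226.0 ± 16.5 CPM in WSB brains (n = 6 each, SD), with a log2 fold change of 0.22 ± 0.06 (edgeR adjusted p = 0.00723). Snhg14 ran from 295 to 348 CPM in CAST animals, with a median of 320.4, and from 317 to 391 CPM in WSB animals, with a median of 336. It was not called, with a log2 fold change of -0.09 ± 0.06 (edgeR adjusted p = 0.226). Only 56.9% of the Ube3a body lies outside other genes, and the genes that overlap it include Snhg14 and the noncoding gene 9330162G02Rik. Snhg14 as annotated overlaps Ube3a only from 59307924 to 59311536. With reads counted on either strand, antisense reads elsewhere in the Ube3a body would be part of its count. Their share was not tested. 9330162G02Rik, named after its values were seen, averaged 20.7 ± 2.90 CPM in CAST brains and 16.2 ± 2.23 CPM in WSB brains and was also called higher, with a log2 fold change of 0.35 ± 0.11 (edgeR adjusted p = 0.0159).

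Snrpn (chr7:59982495-60140219, minus strand) encodes a small nuclear ribonucleoprotein of the splicing machinery and is paternally expressed. It ran from 7.64 to 12.1 CPM in CAST animals, with a median of 10.1, and from 4.48 to 9.14 CPM in WSB animals, with a median of 6.23. CAST_142, the lowest CAST animal, and CAST_203, at 9.01 CPM, lay below the highest WSB animal, WSB_138. The means were 10.1 ± 1.73 CPM in CAST brains and 6.38 ± 1.62 CPM in WSB brains (n = 6 each, SD), with a log2 fold change of 0.67 ± 0.16 (edgeR adjusted p = 0.0046), a 1.59-fold difference and the greatest of the called genes. The overlap with other genes limits this value, since only 5.84% of the exon bases of Snrpn lie outside other gene bodies and 33.9% of its 32-base stretches also occur in transcripts of another gene. The overlapping gene Gm38393 ran from 50.9 to 63.2 CPM in CAST animals and from 34.1 to 40.2 CPM in WSB animals. Gm38393, which was looked at after the values were seen, was higher in CAST too, with a log2 fold change of 0.55 ± 0.06 (edgeR adjusted p = 7.96e-06), and Snurf, which overlaps both, was listed at 0.

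Cdkn1c (chr7:143458339-143461050, minus strand), a maternally expressed inhibitor of cyclin-dependent kinases that restrains growth, was the only one of the 33 genes called lower in CAST with all 12 animals. It ran from 1.37 to 1.63 CPM in CAST animals, with a median of 1.5, and from 1.59 to 2.55 CPM in WSB animals, with a median of 2.09. The ranges overlapped through WSB_100, the lowest WSB animal. The means were 1.5 ± 0.107 CPM in CAST brains and 2.08 ± 0.318 CPM in WSB brains (n = 6 each, SD), which are 64.3 and 83.3 reads per animal on average, and the log2 fold change was -0.47 ± 0.12 (edgeR adjusted p = 0.0051). Of its body, 67.1% lies outside other genes. The same cluster holds Kcnq1, a potassium channel gene and the host of Kcnq1ot1, named after its values were seen, which averaged 13.2 ± 2.11 CPM in CAST brains and 7.36 ± 1.54 CPM in WSB brains and was called higher, with a log2 fold change of 0.84 ± 0.14 (edgeR adjusted p = 0.000271). Of the Kcnq1 body, 54.9% lies outside other genes, and the Kcnq1ot1 stretch within it has no count of its own.

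**Figure D3:**
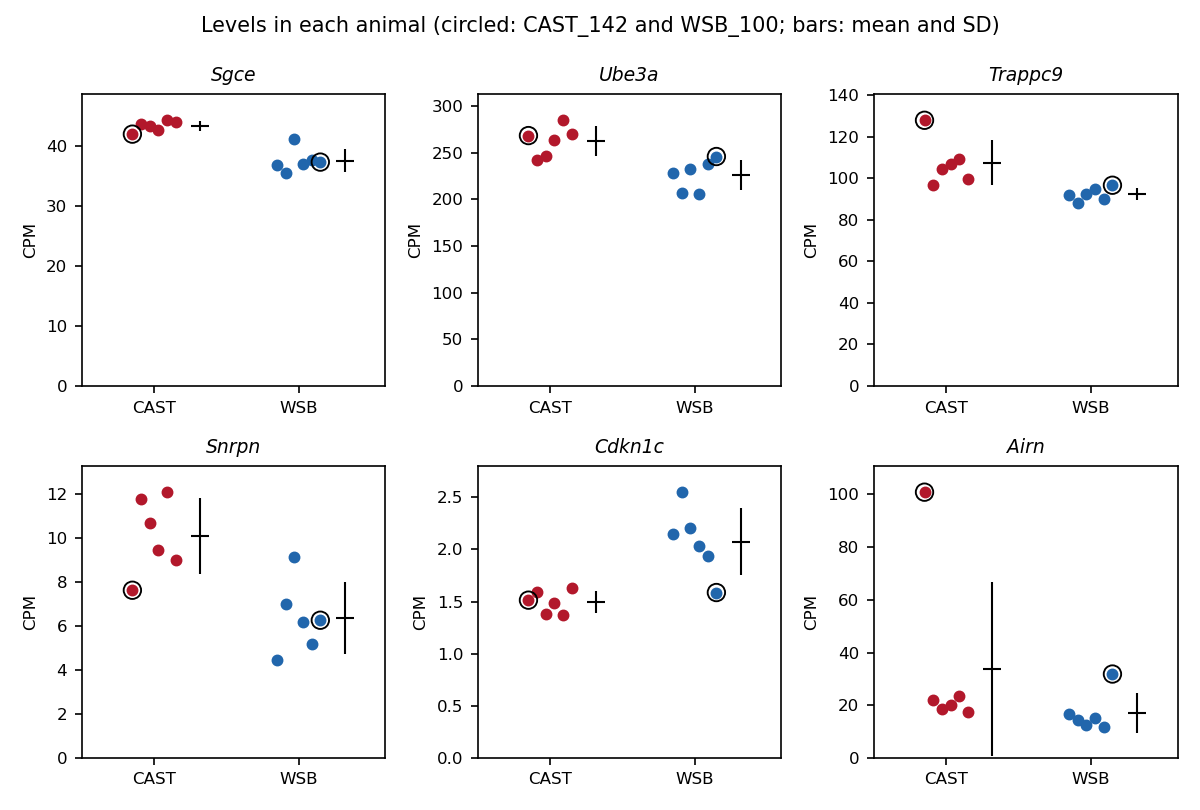
CPM of Sgce, Ube3a, Trappc9, Snrpn, Cdkn1c and Airn in each of 6 CAST animals (left in each panel) and 6 WSB animals (right), with the mean and SD as a bar beside each group and circles around CAST_142 and WSB_100. Sgce and Trappc9 do not overlap between strains, and the circled animals hold the highest Airn value of each strain.

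Airn (chr17:12741311-12860136, plus strand) is the paternal noncoding RNA that silences Igf2r on the paternal chromosome in most tissues, while neurons express Igf2r from both alleles. Airn ran from 17.6 to 101 CPM in CAST animals, with a median of 21, and from 11.9 to 31.8 CPM in WSB animals, with a median of 14.6. The highest animals were CAST_142 and WSB_100, far above the rest of their strains. With all 12 animals the log2 fold change was 0.98 ± 0.45 and was not called (edgeR adjusted p = 0.0961). Without WSB_100 alone it was 1.254 and was called (edgeR adjusted p = 0.043), and without CAST_142 alone it was 0.25 (edgeR adjusted p = 0.419). Without both, the CAST animals ran from 17.6 to 23.4 CPM and the WSB animals from 11.9 to 16.8 CPM, with no overlap, and Airn was called higher, with a log2 fold change of 0.52 (edgeR adjusted p = 0.00107). CAST_142 is the animal with the high cerebellum marker level and WSB_100 the animal with the high olfactory bulb marker level, and the part of these regions in the Airn level was not tested. Igf2r, the receptor that clears IGF2, ran from 58.1 to 66.3 CPM in CAST animals, with a median of 61.9, and from 61.2 to 69.9 CPM in WSB animals, with a median of 64.5. It was not called (log2 fold change -0.07 ± 0.04, edgeR adjusted p = 0.245), and 101 CPM of Airn in CAST_142 stood beside 66.3 CPM of Igf2r, the highest of that strain.

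Without CAST_142 and WSB_100, 7 of the 33 genes were called, 5 higher and 2 lower, against 46.6% of 18511 genes, of which 23% were higher and 23.6% lower. The additional genes were Airn and Copg2. Copg2, which is maternally expressed in some tissues and overlaps the end of Mest, ran from 907 to 1175 CPM in CAST animals, with a median of 1059, and from 998 to 1468 CPM in WSB animals, with a median of 1251. Its log2 fold change was -0.21 ± 0.10 with all animals (edgeR adjusted p = 0.107) and -0.22 without these 2 (edgeR adjusted p = 0.0462). Mest, a paternally expressed hydrolase, ran from 34.3 to 54.9 CPM in CAST animals, with a median of 51.9, and from 43.2 to 56 CPM in WSB animals, with a median of 50.6. The lowest Mest value was that of CAST_142, and the strain means of 49.0 ± 7.52 CPM in CAST brains and 50.2 ± 4.5 CPM in WSB brains did not separate.

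The Dlk1-Dio3 cluster makes noncoding RNAs from the maternal chromosome and proteins from the paternal one, and 0 of its 6 genes was called (edgeR adjusted p of 0.124 to 0.756, with 0 under 0.05 unadjusted and 0 called by DESeq2). Meg3 ran from 4650 to 5900 CPM in CAST animals, with a median of 5109, and from 4497 to 5755 CPM in WSB animals, with a median of 5459. Rian, which hosts small nucleolar RNAs, ran from 616 to 729 CPM in CAST animals and from 647 to 710.1 CPM in WSB animals. Mirg, which hosts microRNAs, ran from 57.5 to 65.0 CPM in CAST animals and from 60.8 to 77.1 CPM in WSB animals. These 3 RNAs lie in a row on the same strand. Of 6 relations between them within strains, Pearson r ran from -0.58 for Meg3 and Mirg in CAST to 0.63 for Rian and Mirg in WSB, and Spearman rho from -0.49 to 0.66 for the same pairs. None of the 6 passed the test, and the lowest exact permutation p adjusted over them was 0.708 for r (0.164 unadjusted) and 0.711 for rho (0.175 unadjusted). Leaving out the 2 animals farthest from the median of the first gene turned the sign of r for 4 of the 6.

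The cluster has 3 paternally expressed genes. Rtl1, a retrotransposon-derived protein with microRNA genes on its opposite strand, ran from 22.3 to 28 CPM in CAST animals and from 24.6 to 35.3 CPM in WSB animals. With reads counted on either strand, antisense reads in the Rtl1 body would be part of its count, and their share was not tested. Dio3, the deiodinase that inactivates thyroid hormone, ran from 0.565 to 1.92 CPM in CAST animals and from 0.354 to 2.53 CPM in WSB animals. Dlk1, a transmembrane protein of the Delta family that restrains differentiation, ran from 10.5 to 68.9 CPM in CAST animals, with a median of 29.2, and from 5.69 to 34.2 CPM in WSB animals, with a median of 20.8. That is a 6.56-fold span among CAST animals and a 6.01-fold span among WSB animals, against a log2 fold change between strains of 0.51 ± 0.48 (edgeR adjusted p = 0.423).

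Within both strains, the highest and the lowest animal differed at least 2-fold for 8 of the 33 genes, which were Zim1, Dlk1, Dio3, H19, Peg10, Asb4, Calcr and Airn. They differed less than 1.5-fold within both strains for 16 genes, among them Meg3, Rian, Mirg, Ube3a, Sgce, Trappc9, Ago2, Gnas and Igf2r. H19, a maternal noncoding RNA that is abundant in fetal tissue, had only 14.8 reads in CAST animals and 15.7 reads in WSB animals on average, so its values rest on few reads.

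Several of the variable genes followed the level of hypothalamus markers from animal to animal, a relation that was looked for after the values were seen. The markers were 13 genes of hypothalamic neurons, such as Avp, Oxt, Hcrt and Pmch, genes that encode neuropeptides, with Hmx2 listed at 0. Their summed level ran from 12.9 to 140 CPM in CAST animals and from 14.5 to 98.2 CPM in WSB animals, lowest in CAST_142 and WSB_120 and highest in CAST_202 and WSB_135, and 0 of the 13 was called between strains (edgeR adjusted p of 0.117 to 0.988, with 0 under 0.05 unadjusted and 0 called by DESeq2). On the log2 scale, Pearson r with the mean of these markers was at least 0.9 in both strains for 5 of the 33 imprinted genes (15.2%), against 59 of 18412 genes outside the marker list (0.32%). The 5 were Calcr, Dlk1, Grb10, Peg10 and Zim1. Agrp, another neuropeptide gene on the marker list, hardly varied, at 5.93 ± 0.478 CPM in CAST brains and 5.29 ± 0.562 CPM in WSB brains. Overlap limits this value, since 40.1% of the Agrp body and 23.5% of its exon bases lie outside other gene bodies. Trh was highest in WSB_100, at 24.9 CPM, although the marker mean of that animal was -0.482 on the log2 scale.

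Dlk1 had r = 0.98 in CAST (exact permutation p = 0.00139) and 0.93 in WSB (exact p = 0.00417), with rho of 1 and 0.94 (exact p = 0.00278 and 0.0167). Peg10 had r = 0.99 in CAST (exact p = 0.00139) and 0.96 in WSB (exact p = 0.00278), with rho of 1 and 0.94. Calcr had r = 0.98 in CAST and 0.97 in WSB (exact p = 0.00278 in each), with rho of 0.94 in each. Grb10, an adaptor that dampens growth factor signalling and is paternally expressed in neurons, had r = 0.96 in each strain (exact p = 0.00556 in CAST and 0.0278 in WSB), with rho of 0.89 and 0.71. Zim1, a maternally expressed zinc finger gene next to Peg3, had r = 0.92 in CAST (exact p = 0.0111) and 0.94 in WSB (exact p = 0.0306), with rho of 0.89 in each. Without the 2 animals of each strain farthest from the median marker level, r stayed at 0.93 or above for all 5 genes in both strains. The WSB animals lay in 2 sets of 3 on the marker scale, with none between them, so r in WSB rests on the step between these sets and the relation cannot be tested within them. None of these p values passed adjustment over all 36824 relations of 18412 genes in 2 strains (adjusted p of 0.470 to 0.548 for r). The lowest exact permutation p that 6 animals allow is 0.00139, and too few relations reached it for these to pass.

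Grb10 ran from 82.3 to 139 CPM in CAST animals, with a median of 98.5, and from 65.6 to 98.0 CPM in WSB animals, with a median of 84.2. Zim1 ran from 8.35 to 32.7 CPM in CAST animals, with a median of 14.9, and from 10.4 to 26.5 CPM in WSB animals, with a median of 14.6. Both overlapped widely between strains, and neither was called (edgeR adjusted p = 0.125 for Grb10 and 0.929 for Zim1). The 5 genes lie in 4 clusters, and maternally and paternally expressed genes are among them. The part that the amount of hypothalamus in each library had in these levels was not tested. Without CAST_142 and WSB_100, 8 genes had r of at least 0.9 in both strains, the same 5 and Asb4, Blcap and Gnas. Without CAST_202 and WSB_135, the animals with the highest marker level, 5 had it, with Impact in and Zim1 out. With all animals, 15 of the 33 genes had r of at least 0.9 in at least 1 strain, among them Plagl1 and Usp29 in CAST and Impact in WSB. Herc3, a ubiquitin ligase gene and the host of Nap1l5, went the opposite way in CAST, with r = -0.98 (exact p = 0.00139), and had r = -0.55 in WSB (exact p = 0.272).

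**Figure D4:**
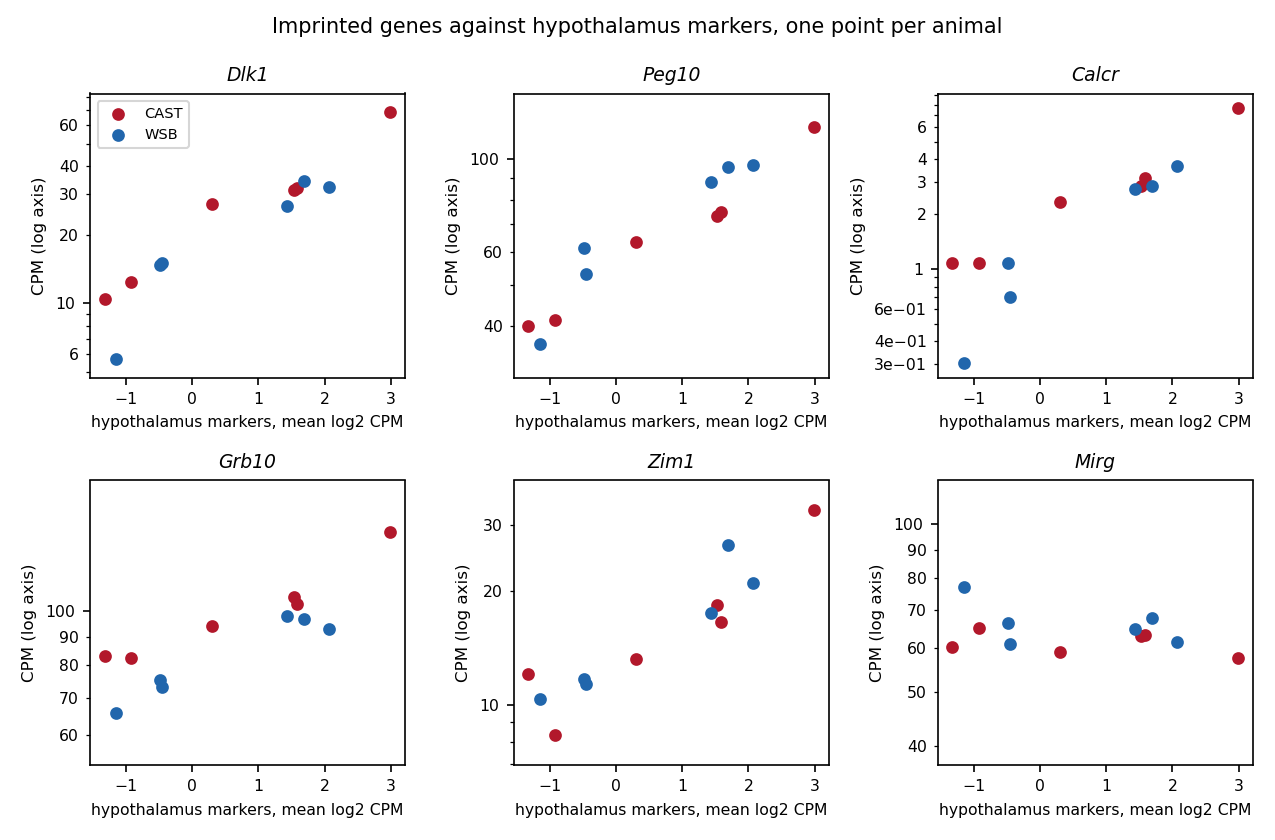
CPM (log axis) of Dlk1, Peg10, Calcr, Grb10, Zim1 and, for contrast, Mirg against the mean log2 CPM of 13 hypothalamus markers, with 1 point per animal, CAST in red and WSB in blue. CAST_142 and WSB_120 lie lowest on the marker axis of their strains, and CAST_202 and WSB_135 highest. The first 5 genes are higher at high marker levels in each strain, though not in strict order, and Mirg is not. In WSB this is a step between animals with low and with high marker levels. Grb10 is at 98.0 CPM in WSB_147, 96.8 CPM in WSB_138 and 93.1 CPM in WSB_135, where the markers rise in that order.

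Imprints are kept as CpG methylation, so start regions of the genes that moved together are shown for their CpG content. Whether these windows carry the imprint marks of the genes was not tested. RefSeq (GRCm38.p6) gives windows of 300 bases, from 250 before to 50 after the start, for 33 of the 44 genes. Peg10 is not among the genes with a window. CG pairs are in capitals, and each window is written 5′ to 3′ on the strand of the gene: Dlk1 at chr12:109452573-109452872 (plus strand), Calcr at chr6:3763574-3763873 (minus strand), Grb10 at chr11:12037371-12037670 (minus strand) and Zim1 at chr7:6696383-6696682 (minus strand). For Calcr and Grb10, which have another start in the table, the window with more CG pairs is shown.
Dlk1: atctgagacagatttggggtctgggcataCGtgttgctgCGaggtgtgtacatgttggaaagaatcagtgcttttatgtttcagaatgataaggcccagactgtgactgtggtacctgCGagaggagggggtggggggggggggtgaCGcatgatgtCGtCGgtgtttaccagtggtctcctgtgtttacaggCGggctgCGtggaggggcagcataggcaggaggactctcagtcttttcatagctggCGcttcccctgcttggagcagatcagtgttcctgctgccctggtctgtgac
Calcr: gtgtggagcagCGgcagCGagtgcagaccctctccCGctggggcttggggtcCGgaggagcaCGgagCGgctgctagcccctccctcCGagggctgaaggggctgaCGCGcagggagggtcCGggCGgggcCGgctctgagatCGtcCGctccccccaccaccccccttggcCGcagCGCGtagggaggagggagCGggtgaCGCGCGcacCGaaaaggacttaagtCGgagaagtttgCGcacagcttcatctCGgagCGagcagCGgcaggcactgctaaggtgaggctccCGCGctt
Grb10: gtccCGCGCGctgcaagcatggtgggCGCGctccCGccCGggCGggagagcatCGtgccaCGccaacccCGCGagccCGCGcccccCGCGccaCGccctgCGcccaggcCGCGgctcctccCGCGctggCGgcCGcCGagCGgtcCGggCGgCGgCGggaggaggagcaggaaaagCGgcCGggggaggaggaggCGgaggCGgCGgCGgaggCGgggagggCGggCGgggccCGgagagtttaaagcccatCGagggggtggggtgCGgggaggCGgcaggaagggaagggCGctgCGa
Zim1: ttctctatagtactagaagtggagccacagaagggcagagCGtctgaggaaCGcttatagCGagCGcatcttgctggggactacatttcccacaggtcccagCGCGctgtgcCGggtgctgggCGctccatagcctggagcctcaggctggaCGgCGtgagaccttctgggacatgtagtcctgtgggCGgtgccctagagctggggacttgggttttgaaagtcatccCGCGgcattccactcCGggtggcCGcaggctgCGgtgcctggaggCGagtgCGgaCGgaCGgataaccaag

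The windows differed widely in CpG content, with 9 CG pairs for Dlk1, 20 for Zim1, 29 for Calcr and 45 for Grb10, the most of any window of these genes. The 46 windows of the 33 genes held a median of 15 CG pairs, against 7 over all 32851 windows. The hexamer TGCCGC, read on both strands, is the core of the motif bound by ZFP57, a zinc finger protein that protects imprints after fertilization. It was found in 12 of the 46 windows (26.1%), against 11.6% of all windows. The hexamer itself holds a CG pair, and the median window of these genes holds more CG pairs. The 2 shares are thus not matched for CpG content, and its part in them was not tested. Among the 4 shown, Calcr held 2 matches, Grb10 and Zim1 held 1 each, and Dlk1 held 0. A match is a description of the letters, and some windows share bases, both within a gene and between genes, such as Peg3 and Usp29 or the identical window listed for Snhg14 and Snrpn.

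The remaining single genes were not called between strains. Peg3 ran from 661 to 993 CPM in CAST animals, with a median of 732, and from 626 to 797 CPM in WSB animals, with a median of 695. Usp29, a ubiquitin-specific protease gene that starts 146 bases from Peg3 on the opposite strand, ran from 34.4 to 51.1 CPM in CAST animals and from 33.7 to 53.6 CPM in WSB animals. Impact ran from 289 to 434 CPM in CAST animals, with a median of 318, and from 263 to 332 CPM in WSB animals, with a median of 289.8. Rasgrf1 ran from 551 to 691 CPM in CAST animals, with a median of 576, and from 581 to 652 CPM in WSB animals, with a median of 607. None of these 4 was called (edgeR adjusted p of 0.173 to 0.674), and the strains overlapped in each.

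Inpp5f, an inositol phosphatase gene with a paternal variant in brain, ran from 127 to 166 CPM in CAST animals, with a median of 134, and from 118 to 141 CPM in WSB animals, with a median of 127. Gnas, the alpha subunit of the stimulatory G protein, ran from 84.3 to 122 CPM in CAST animals, with a median of 106, and from 82.9 to 108 CPM in WSB animals, with a median of 98.0. Plagl1, a paternally expressed zinc finger transcription factor, ran from 16.4 to 34.2 CPM in CAST animals, with a median of 21.4, and from 25.3 to 37.6 CPM in WSB animals, with a median of 28.7. Plagl1 was lower in 5 of 6 CAST animals than the WSB median, and its log2 fold change of -0.34 ± 0.16 was not called (edgeR adjusted p = 0.108).

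The other host genes named here, Herc3, Blcap and Commd1, overlapped between strains, unlike Trappc9 and Kcnq1. Herc3 ran from 228 to 285 CPM in CAST animals, with a median of 255, and from 201.4 to 283 CPM in WSB animals, with a median of 228. Blcap ran from 90.6 to 119 CPM in CAST animals, with a median of 101, and from 84.9 to 106 CPM in WSB animals, with a median of 99.1. Commd1, a copper metabolism protein gene biased to the maternal allele in brain, ran from 0.459 to 0.859 CPM in CAST animals and from 0.350 to 0.731 CPM in WSB animals. Only 0.339% of the Commd1 body lies outside other genes, so its level is that of a small remnant.

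A further list held imprinted genes outside the 44, chosen with earlier results of these data known. Of its 48 genes, 5 were at 0 (Igf2, Tssc4, Snurf, Mcts2 and Cdh15), 5 had too few reads and 38 were tested. Of these, 6 were higher and 7 lower in CAST, which makes 34.2% called beside 42.7% of all genes. Without CAST_142 and WSB_100, 10 were higher and 7 lower, which makes 44.7% beside 46.6% of all genes. The smallest p values among those higher belonged to Tspan32, Pon3 and Zfp264. Tspan32, a tetraspanin gene, had a log2 fold change of 2.56 ± 0.22 (edgeR adjusted p = 6.06e-07). Pon3, a paraoxonase gene, had 1.30 ± 0.17 (edgeR adjusted p = 3.4e-05). Zfp264, annotated as a transcribed unprocessed pseudogene in the Peg3 cluster, had 1.70 ± 0.27 (edgeR adjusted p = 0.000188). Among those lower, the smallest p values belonged to Pon2, Osbpl5 and Tnfrsf23. Pon2, another paraoxonase gene, had -3.42 ± 0.08 (edgeR adjusted p = 1.36e-12). Osbpl5, an oxysterol-binding protein gene, had -0.28 ± 0.05 (edgeR adjusted p = 0.000835). Tnfrsf23, a decoy receptor gene, had -0.90 ± 0.23 (edgeR adjusted p = 0.00568). Reads averaged 47.3 in CAST and 7.33 in WSB animals for Tspan32, 23 and 6.5 for Zfp264, and 8 and 13.8 for Tnfrsf23. The values of these genes thus rest on few reads. Pon2 averaged 2.53 ± 0.253 CPM in CAST brains and 27.1 ± 1.94 CPM in WSB brains, the greatest difference on that list.

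Of 22 genes that set, read or keep DNA methylation imprints, 19 were tested, 2 were higher and 4 lower in CAST (31.6% beside 42.7% of all genes). Without CAST_142 and WSB_100, 1 was higher and 5 were lower (31.6% beside 46.6% of all genes, of which 23% were higher and 23.6% lower). Zfp57 averaged 12.8 ± 1.63 CPM in CAST brains and 10.4 ± 1.33 CPM in WSB brains (log2 fold change 0.30 ± 0.10, edgeR adjusted p = 0.0303) and was among those higher. Lower were Tet2, an enzyme that oxidizes methylated cytosine (-0.56 ± 0.05, edgeR adjusted p = 1.24e-06), Arid4a (-0.17 ± 0.04, edgeR adjusted p = 0.00402), Zfp445, which protects imprints together with ZFP57 (-0.21 ± 0.06, edgeR adjusted p = 0.00979), and Mbd3 (-0.12 ± 0.04, edgeR adjusted p = 0.016). The methyltransferase genes Dnmt1 and Dnmt3a were not called, with log2 fold changes of 0.05 ± 0.07 and -0.04 ± 0.06.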

How the data were processed

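Per the labels, brain RNA of 6 CAST/EiJ and 6 WSB/EiJ mice was sequenced on lanes 5 and 6. The authors deposited raw counts per gene as whole numbers. Tools listed in the submitters' processing notes are HTSeq, DESeq2, cutadapt and TopHat2 (version 2.1.1), with no roles. No build, annotation or strand setting is given there. Of 53465 gene identifiers, 53360 are in GENCODE M21 (GRCm38), used for symbols and coordinates. The 5 counters that name no gene were left out; reads in more than 1 feature made up 11.1% to 16.5% of alignments, and alignments that were not unique 15.8% ± 0.195 for CAST animals and 17.2% ± 0.177 for WSB animals (n = 6 each, SD).

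Lanes were summed, since they agreed nearly within sampling noise (chi-square over its degrees of freedom 1.09 to 1.40, against 3.53 to 84.6 between animals). The strain comparison used edgeR 4.0.16 under R 4.3.3 (quasi-likelihood, robust, TMM, default filter by strain), CAST over WSB, with Benjamini-Hochberg adjustment over 18425 genes. Sequence differences between a strain and the reference genome can change how many reads align. Such an effect cannot be told apart from a strain difference in level, and its part was not tested. Counts for CAST over WSB were also simulated (18272 genes, with 50 changed at each fold). On these, the test recovered 28% of genes changed 1.25-fold, 72% changed 1.5-fold, 94% changed 2-fold and 100% changed 4-fold, with 9 false calls. Far more genes were called in the data (7866), and the adjusted cutoff depends on that number, so these shares are not those of the data. Relations were taken on log2 CPM (prior count 2) with exact two-sided permutation of 6 animals. Alternatives were other scalings, filters, DESeq2 1.42.0, single lanes and left-out animals. Members and lists were chosen with earlier results of these data known. Values are given in full for called genes with separate ranges and the most abundant gene of each cluster; up to 3 called genes per direction are named from other lists. Any other gene named was picked with its values in view. The values of another called gene of the imprint maintenance list are not reported here.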

Additional observations from a re-analysis of the deposited data

Results flagged for a closer look

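An animal was picked out where its gap to the next animal of its strain exceeded Dixon's 95% limit for 6 animals, as a share of the strain's range. The search covered 66 groups (33 genes in 2 strains) and found 9 values, where chance alone gives about 1 in 20 groups, and the genes share the same 12 libraries.

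CAST_202, the CAST animal with the highest level of hypothalamus markers, held 4 of the 9, all high. They were 68.9 CPM of Dlk1 (next animal 32), 6.75 CPM of Asb4 (next 2.66), 7.68 CPM of Calcr (next 3.16) and 434 CPM of Impact (next 331). CAST_142, the animal with the high cerebellum marker level, held 3, which were 101 CPM of Airn (next 23.4), above the others, and 616 CPM of Rian (next 704) and 34.3 CPM of Mest (next 48.0), below the others. WSB_100, the animal with the high olfactory bulb marker level, held 31.8 CPM of Airn (next 16.8). WSB_138 held 37.6 CPM of Plagl1 (next 29.0). The part of brain region content in these values was not tested.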

How the results depend on the processing

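All 5 called genes were called in the same direction under each of 21 alternatives. The count lower in CAST was 2 without CAST_142 and WSB_100 (Cdkn1c, Copg2) and ran from 1 to 2 when each animal was left out in turn, with Plagl1 joining without CAST_202 (-0.49, edgeR adjusted p = 0.00958) and Copg2 without WSB_100 (-0.27, edgeR adjusted p = 0.0362); the count higher ran from 4 to 5. Asb4 was called by DESeq2 (0.90, adjusted p = 0.049) and by edgeR without CAST_201 (1.05, adjusted p = 0.0422). Other imprinted genes called were 7 with at least 1 CPM required in 6 animals, where fewer genes are tested, and 12 to 17 with an animal left out; imprint maintenance genes called were 4 to 6, and all genes called 7313 to 8726. The hypothalamus count was 8 without CAST_142 and WSB_100 and 5 or 6 in its other alternatives, all added after the data were seen.

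Directions turned only for 4 genes that were called in neither fit, and the cause was not tested. Zim1 (0.04) was -0.011 on lane 6 only and -0.25 to 0.23 with an animal left out. H19 (-0.19) was -0.52 to 0.00184 with an animal left out. Peg10 (-0.07) was 0.00468 without CAST_142 and WSB_100 and -0.29 to 0.047 with an animal left out. Mest (-0.04) was 0.035 without these 2 animals and -0.077 to 0.045 with an animal left out. The r of Rian and Mirg in CAST was -0.12 with library size only, and that of Meg3 and Rian in WSB was -0.15 without WSB_100. H19 and Commd1 had no value in the alternatives whose filter removed them, and DESeq2 gave no p for Airn. No paired analysis was possible because the strains share no animal number. The test recovered only 28% of the smallest simulated differences, but far fewer genes were changed there than were called in the data. That share therefore does not carry over to these genes. Small differences among them can still be missed, and brain regions varied between libraries.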
